A study of Mus musculus with 24 samples.

Results

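The choline and ethanolamine phospholipid genes followed here are the liver genes that encode the enzymes of phosphatidylcholine and phosphatidylethanolamine synthesis and of glycerophosphocholine breakdown. They were chosen by name: Chka, Chkb, Etnk1, Etnk2, Pcyt1a, Pcyt2, Chpt1, Cept1, Pemt and Gpcpd1, which makes 10 genes. Of these, 9 were measured among the 23152 genes of the array that had at least 1 probe set of their own. Chkb had none, since its 25 probe sets are also assigned to BC090627 and Cpt1b, so no value is given for it. The list was proposed with the daily ranges of Chka and Gpcpd1 already known, so the values of these 2 genes, and any count that includes them, are descriptions without a test.

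Total RNA of the liver was measured in male mice of 13 weeks, of a strain written C56bl/6J in the labels, that had free access to a chow diet. The 8 groups are zeitgeber times (ZT, hours of the light and dark cycle) 3 h apart from ZT0 to ZT21, with 3 arrays each and 24 arrays in all. All groups share strain, sex, age and diet, and no group carries a mutation or a treatment. The labels number the replicates 1 to 3 at each time and do not say that they are separate animals, so the p-values measure the spread between these arrays, which may be technical.

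Liver cells make phosphatidylcholine along 2 routes. In the CDP-choline route, choline is phosphorylated by a choline kinase, joined to cytidine diphosphate by a cytidylyl transferase and transferred to diacylglycerol by a phosphotransferase. The CDP-ethanolamine route makes phosphatidylethanolamine by the matching steps, and in hepatocytes the methyltransferase PEMT converts phosphatidylethanolamine to phosphatidylcholine. Phosphatidylcholine is needed for membranes, for lipoprotein particles and for bile. When it is broken down by loss of both fatty acids it leaves glycerophosphocholine, which the phosphodiesterase GPCPD1 splits into choline and glycerol-3-phosphate.

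All values are log2 expression levels, and a gene's value is the mean over its probe sets (9 to 23 for the measured genes). A difference of 1 is thus a doubling. For each gene a cosine of 24 h was fitted over the 24 arrays: its range is the fitted top minus the fitted bottom, and its peak time is the hour of the top. A gene is called rhythmic when limma's moderated F test of that cosine has a Benjamini-Hochberg adjusted p under 0.05 over all 23152 genes. A time effect is the same call for any difference among the 8 time-point means.

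Array medians lay between 6.44 and 6.51. The 95th percentile of 1101 olfactory receptor genes, 6.17, served as background level, and all 9 measured genes lay above it. Of the hepatocyte markers, 10 of 10 were above background and their mean lay between 17.61 and 17.82 on every array. The markers of other cell types (58 measured) included 30 above background and 2 rhythmic ones. The replicate 1 array of ZT0 stood apart. Its 6 neutrophil markers averaged 10.28 against 4.24 to 5.12 on the other 23 arrays, and 6 of 6 were above every other array. Its 8 Kupffer cell markers averaged 12.04 against 7.64 to 9.66, again with 8 of 8 above every other array, while its hepatocyte marker mean was 17.70. The hepatocyte marker mean can show little change, since 100 of the 140 probe sets behind it reach the highest value of the table; none of the neutrophil or Kupffer cell probe sets do. Its mean correlation with the other arrays was 0.9678, against at least 0.9802 for the rest. Means of ZT0 that serve below as the highest or lowest of a gene are given with and without this array; the part of these markers in the results was not tested. In whole liver RNA, fewer cells of a type and less RNA per cell cannot be told apart.

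Choline kinase alpha had the widest daily course of the 9 genes, with a fitted range of 4.63 that corresponds to a 24.8-fold difference and a peak at 19.4 h. Gpcpd1 followed with a range of 3.15, or 8.90-fold, and a peak at 6.18 h, 10.8 h away from that of Chka. Pcyt1a, the cytidylyl transferase of the CDP-choline route, was rhythmic with a range of 0.52 and a peak at 12.7 h, 6.73 h from Chka and 6.52 h from Gpcpd1. The other 6 genes had ranges of 0.15 to 0.53 and were not called rhythmic.

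**Figure D1:**
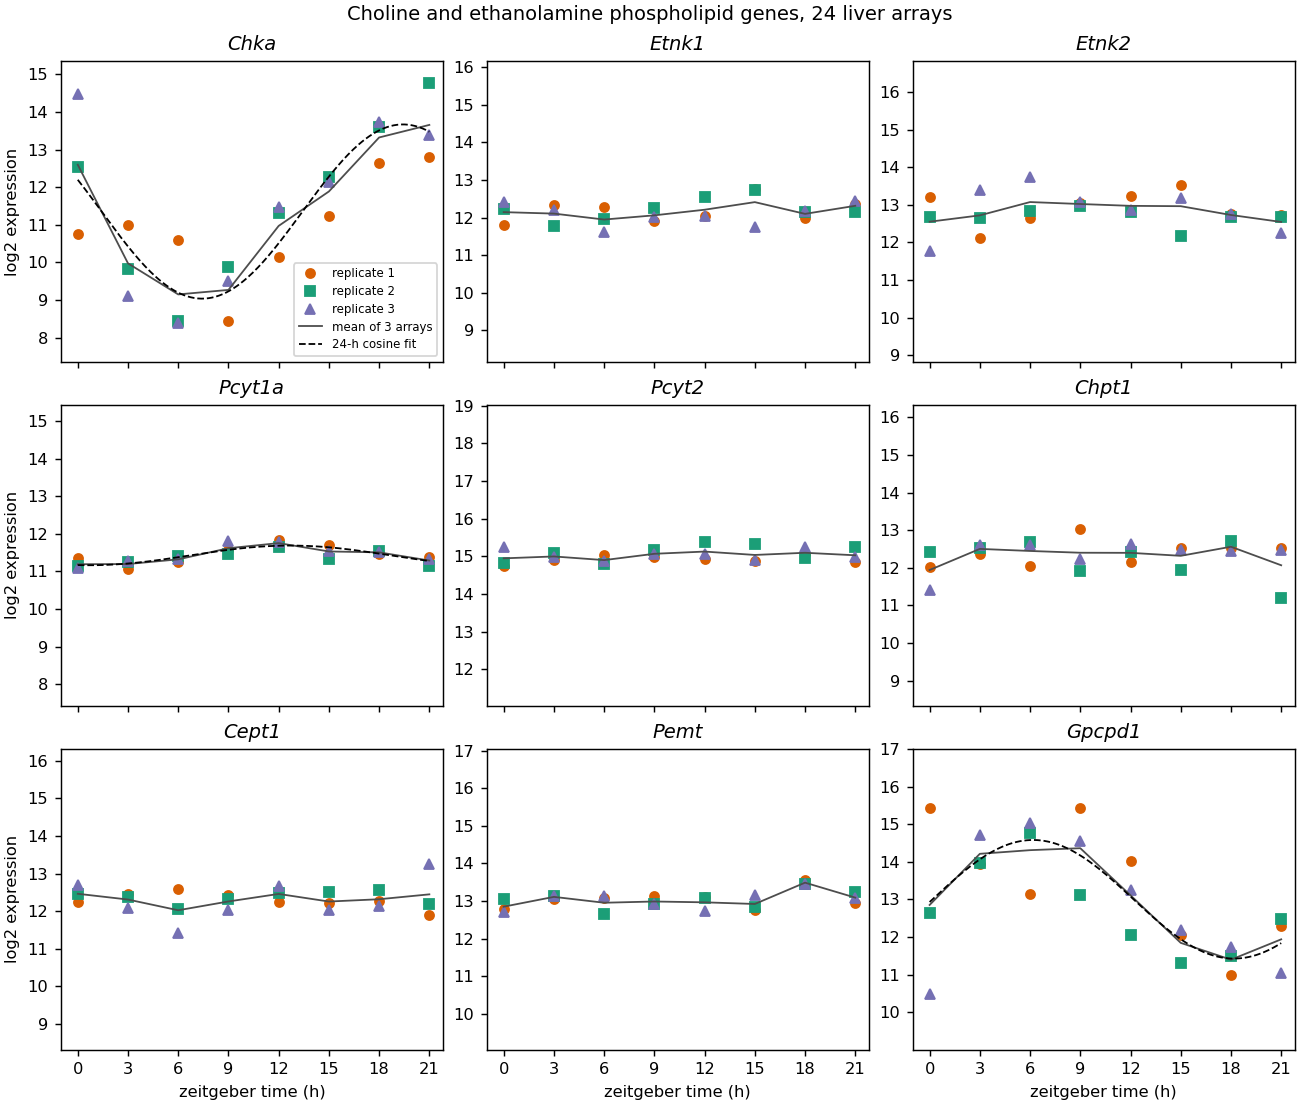
Log2 expression (vertical axis, each panel spanning the same number of log2 units) against zeitgeber time in hours for the 9 measured genes; symbols are single arrays by replicate number, solid lines join the means of 3 arrays and dashed lines are the 24 h cosines of Chka, Pcyt1a and Gpcpd1. Chka runs from a mean of 9.15 at ZT6 to 13.7 at ZT21 and Gpcpd1 from 11.40 at ZT18 to 14.36 at ZT9, and the arrays of ZT0 are far apart in both genes.

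Chka encodes choline kinase alpha, which phosphorylates choline in the first step of the CDP-choline route. The gene lies at chr19:3851585-3894369 (mm10) and has 18 probe sets. Its levels on replicates 1, 2 and 3 were 10.75, 12.55 and 14.49 at ZT0, 10.98, 9.83 and 9.11 at ZT3, 10.60, 8.45 and 8.39 at ZT6, and 8.43, 9.87 and 9.50 at ZT9. From ZT12 on they were 10.13, 11.32 and 11.46 at ZT12, 11.24, 12.27 and 12.15 at ZT15, 12.63, 13.59 and 13.74 at ZT18, and 12.81, 14.77 and 13.38 at ZT21. Low values thus lay in the hours from ZT3 to ZT9 and high ones from ZT18 to ZT21, and every array of ZT21 was above every array of ZT6. The time-point mean was 9.15 ± 1.26 at ZT6 and 13.7 ± 1.01 at ZT21 (SD, n = 3). The fitted range was 4.63 ± 0.52 (SE), with a peak at 19.4 ± 0.43 h.

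At ZT0 the Chka arrays spread over more than 3 log2 units (SD 1.87), against a median SD of 0.85 over the 8 times. Gpcpd1 spread in the opposite order at the same time, with 15.4, 12.64 and 10.48 on replicates 1, 2 and 3. The clock gene Arntl, which encodes the transcription factor BMAL1, was at 9.35, 11.3 and 12.1 on these arrays, and Nr1d1, which encodes REV-ERB alpha, was at 10.78, 9.98 and 7.31. The replicate 1 array was thus lowest of the 3 in Chka and Arntl and highest in Gpcpd1 and Nr1d1. At ZT3 and ZT6 replicate 1 was highest of the 3 in Chka and in Arntl. Arntl was at 10.717, 9.021 and 7.997 at ZT3 and at 8.56, 6.28 and 6.64 at ZT6. At every time from ZT9 to ZT21 replicate 1 was lowest of the 3 in both Chka and Arntl. At ZT12, for example, Arntl was at 7.772, 9.906 and 10.296. The part of this order in the spread of Chka and in the fitted peak times was not tested. Without the replicate 1 array of ZT0, which carries the neutrophil and Kupffer cell signal, the range of Chka was 4.74 with a peak at 19.6 h, and that of Gpcpd1 was 3.21 with a peak at 6.75 h.

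The choline kinase gene has a RefSeq start site of transcription at base 3851773 of chromosome 19. The 30 bases that end just before it are shown because they hold 2 of the motifs found. They lie at chr19:3851743-3851772 (GRCm38.p6, plus strand), within the gene record, which begins upstream of this start. Capitals mark a CCAAT box (CCAAT) and a GC box (GGGCGG).
Chka: gtCCAATcagcggcgagcgcggGGGCGGgc
In the whole window of 250 bases before the start, a further GC box (as CCGCCC) lies at positions -153 to -148 upstream of the start, and a further CCAAT box at -82 to -78. Among all 32851 such windows in the RefSeq table, 33.8% hold CCAAT and 32.7% hold GGGCGG on either strand. Windows were found for 8 of the 10 genes, 13 windows in all, and none was listed for Gpcpd1 or Pcyt2. Both strands were also searched for the E-box CACGTG, the D-box (TTATGTAA or TTATGCAA), the ROR and REV-ERB core TAGGTCA, the cyclic AMP response element TGACGTCA and the FOXO site GTAAACA. None of these letters occurred in the 13 windows; among all windows the E-box occurs in 6.02%, the D-box in 1.5%, TAGGTCA in 2.23%, TGACGTCA in 1.55% and GTAAACA in 3.17%. The E-box variant CACGTT, held by 3.85% of all windows, occurred in 1 of the 13, a window of Cept1. Such a match, or its absence, describes the letters of the window only.

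The ethanolamine kinases, which carry out the matching first step on ethanolamine, were not called rhythmic. Etnk1 (chr6:143166866-143208546, 9 probe sets) lay between 11.62 and 12.76 over the 24 arrays, with a median of 12.16. Its time-point means ran from 11.95 ± 0.33 at ZT6 to 12.41 ± 0.57 at ZT15 (SD, n = 3), and the arrays of these times overlapped. The fitted range was 0.28 ± 0.17 (SE; adjusted p = 0.591, limma). Etnk2 (chr1:133363463-133380318, 13 probe sets) lay between 11.77 and 13.75, with a median of 12.79. Its means ran from 12.55 ± 0.27 at ZT21 to 13.1 ± 0.60 at ZT6 with overlapping arrays, and its range of 0.53 ± 0.24 was as wide as that of Pcyt1a but had an adjusted p of 0.377 (limma). The median SD within a time point was 0.43 for Etnk2 and 0.13 for Pcyt1a. Over the 34 alternatives the range of Etnk2 lay between 0.40 and 0.845, highest with the median of its probe sets. It was not called in any of them (adjusted p 0.185 to 0.553, limma).

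Pcyt1a encodes CTP:phosphocholine cytidylyl transferase alpha, the enzyme known as the rate-limiting step of the CDP-choline route. It lies at chr16:32430921-32475065 (mm10) and has 16 probe sets. Replicates 1, 2 and 3 were at 11.34, 11.14 and 11.09 at ZT0, 11.06, 11.24 and 11.29 at ZT3, 11.24, 11.40 and 11.33 at ZT6, and 11.58, 11.46 and 11.81 at ZT9. At the later times they were at 11.84, 11.64 and 11.78 at ZT12, 11.71, 11.33 and 11.55 at ZT15, 11.45, 11.55 and 11.52 at ZT18, and 11.39, 11.14 and 11.34 at ZT21. The 3 arrays of ZT12 were all above the 15 arrays of ZT0, ZT3, ZT6, ZT18 and ZT21, and overlapped with those of ZT9 and ZT15. The mean was 11.19 ± 0.13 at ZT0 (11.12 without the replicate 1 array) and 11.75 ± 0.10 at ZT12 (SD, n = 3). Its fitted range of 0.52 ± 0.09 (SE) corresponds to a 1.44-fold difference, with a peak at 12.7 ± 0.68 h and an adjusted p of 0.00215 (limma). It was 0.56, with the same peak time, without the replicate 1 array of ZT0. The call was lost when the gene value was the median of the probe sets (adjusted p = 0.0773) or the brightest probe set (0.299), and on the 16 arrays of replicates 2 and 3 (0.069). The test of a time effect gave an adjusted p of 0.105 (limma).

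The promoter window of Pcyt1a is shown because it is that of the rhythmic cytidylyl transferase and holds the letters of the sterol regulatory element. It covers the 250 bases before the first RefSeq start, chr16:32430671-32430920 (GRCm38.p6, plus strand). Capitals mark the sterol regulatory element TCACCCCAC, at positions -116 to -108 from the start, and 2 GC boxes GGGCGG that overlap by 2 bases, at -31 to -26 and -27 to -22.
Pcyt1a: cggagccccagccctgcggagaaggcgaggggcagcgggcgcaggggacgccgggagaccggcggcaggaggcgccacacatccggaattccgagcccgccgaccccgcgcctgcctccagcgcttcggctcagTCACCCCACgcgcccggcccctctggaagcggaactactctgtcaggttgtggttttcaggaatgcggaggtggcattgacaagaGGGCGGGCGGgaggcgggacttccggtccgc
The letters TCACCCCAC occur in 0.496% of all windows on either strand, and in 2 of the 13 windows of these genes. Both of these are windows of Pcyt1a that overlap and share the same site. GC boxes occurred in 9 of the 13 windows and CCAAT boxes in 4.

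Pcyt2, the cytidylyl transferase of the CDP-ethanolamine route (chr11:120610062-120617947, 15 probe sets), lay between 14.75 and 15.39 over the 24 arrays, with a median of 14.99. Its means differed by little, from 14.90 ± 0.12 at ZT6 to 15.13 ± 0.24 at ZT12 (SD, n = 3), and the arrays of these times overlapped. The fitted range was 0.15 ± 0.11 (SE; adjusted p = 0.711, limma), the smallest of the 9 genes. Pcyt2 and Pcyt1a catalyse matching steps, but no test of the difference between their courses was run.

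The phosphotransferases join the activated head group to diacylglycerol. Chpt1, the choline phosphotransferase (chr10:88469513-88503970, 18 probe sets of its own), lay between 11.19 and 13.05, with a median of 12.46. Its mean was 11.94 at ZT0 (11.91 without the replicate 1 array) and 12.56 at ZT18, and the lowest array of ZT18 (12.44) was just above the highest of ZT0 (12.41). The fitted range was 0.31 ± 0.23 (SE; adjusted p = 0.717, limma). Cept1, which accepts both head groups (chr3:106502260-106547802, 11 probe sets of its own), lay between 11.41 and 13.25 with a median of 12.29, and its means ran from 12.02 at ZT6 to 12.46 at ZT0 (12.58 without the replicate 1 array) with overlapping arrays. Its range was 0.21 ± 0.20 (adjusted p = 0.812, limma). Over the 34 alternatives that range lay between 0.086 and 0.546, without a call. Neither the rhythm test nor the test of a time effect called a phosphotransferase.

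Pemt encodes the methyltransferase that turns phosphatidylethanolamine into phosphatidylcholine, and its highest values were all those of a single time point, ZT18. It lies at chr11:59970614-60046561 and has 12 probe sets. Replicates 1, 2 and 3 were at 12.79, 13.05 and 12.71 at ZT0, 13.07, 13.13 and 13.14 at ZT3, 13.08, 12.66 and 13.12 at ZT6, and 13.12, 12.92 and 12.92 at ZT9. The later arrays were at 13.09, 13.07 and 12.73 at ZT12, 12.76, 12.85 and 13.15 at ZT15, 13.55, 13.45 and 13.46 at ZT18, and 12.95, 13.24 and 13.08 at ZT21. All 3 arrays of ZT18 were above the other 21 arrays, whose highest was 13.24. The mean was 13.49 ± 0.05 at ZT18 (SD, n = 3), and the lowest mean was 12.85 ± 0.18 at ZT0, or 12.88 without its replicate 1 array. This difference did not pass the test of a time effect (adjusted p = 0.226, limma; 0.104 to 0.86 over the alternatives), and the cosine was not called either (range 0.24 ± 0.14; adjusted p = 0.558).

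Gpcpd1 encodes the phosphodiesterase that releases choline from glycerophosphocholine. It lies at chr2:132529082-132578248 and has 23 probe sets. Its levels on replicates 1, 2 and 3 were 15.4, 12.64 and 10.48 at ZT0, 13.95, 13.98 and 14.71 at ZT3, 13.14, 14.8 and 15.03 at ZT6, and 15.43, 13.11 and 14.55 at ZT9. Later they were 14.02, 12.05 and 13.26 at ZT12, 12.05, 11.31 and 12.18 at ZT15, 11.0, 11.48 and 11.73 at ZT18, and 12.29, 12.47 and 11.05 at ZT21. Outside ZT0, high values lay mostly between ZT3 and ZT9 and low ones between ZT15 and ZT21, near the hours in which Chka was low and high respectively, and every array of ZT9 was above every array of ZT18. The single highest and the single lowest array of the gene were both from ZT0. The time-point mean was 14.36 ± 1.17 at ZT9 and 11.40 ± 0.38 at ZT18 (SD, n = 3). The fitted range was 3.15 ± 0.54 (SE), with a peak at 6.18 ± 0.65 h. Under the alternatives the range was lowest, at 1.82, when only the brightest probe set was used, and highest at 3.47.

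Read as counts, 3 of the 9 measured genes were rhythmic (33.3%), against 1592 of 23152 genes (6.88%), and 13.9% of the 10289 genes above background. Since Chka and Gpcpd1 were known to be among the 3, nothing is read from that count. Of the other 7 measured genes, Pcyt1a was rhythmic, which is 14.3% and thus near the share of the genes above background. The median range of these 7 was 0.28, against 0.25 over all genes and 0.33 over genes above background. A time effect was called by limma for 0 of these 7, against 1.98% of all genes and 432 of the 10289 genes above background. In the cosine test, 1 of the 7, Pcyt1a, had an unadjusted p under 0.05 (limma). Over all genes 4438 of 23152 did, and 3417 of the 10289 above background. In the test of a time effect, Pcyt1a (unadjusted p = 0.00371, limma) and Pemt (0.0192) were below 0.05. The share of all genes below it in that test was not counted. With the genes at or below background left out of the fit, Pcyt1a was called for a time effect (adjusted p = 0.0383, limma).

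Taken by replicate number, the arrays form 3 sets of 8. The labels do not say whether a number links arrays across times, so these sets are not read as separate time series. Chka had ranges of 3.19, 5.37 and 5.43 with peaks at 20.2, 19.1 and 19.3 h in replicates 1, 2 and 3. For Gpcpd1 the ranges were 2.87, 2.98 and 4.16, with peaks at 5.64, 4.68 and 7.63 h. Pcyt1a gave 0.61, 0.40 and 0.60, with peaks at 13.8, 11.9 and 12.1 h. In each of the 3 sets the peaks came in the order Gpcpd1, Pcyt1a, Chka over the day, which is a description without a test. Among the genes not called rhythmic the peak times were far apart between sets, for example 6.83, 16.4 and 20.1 h for Cept1 and 14.4, 6.09 and 8.78 h for Etnk2.

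**Figure D2:**
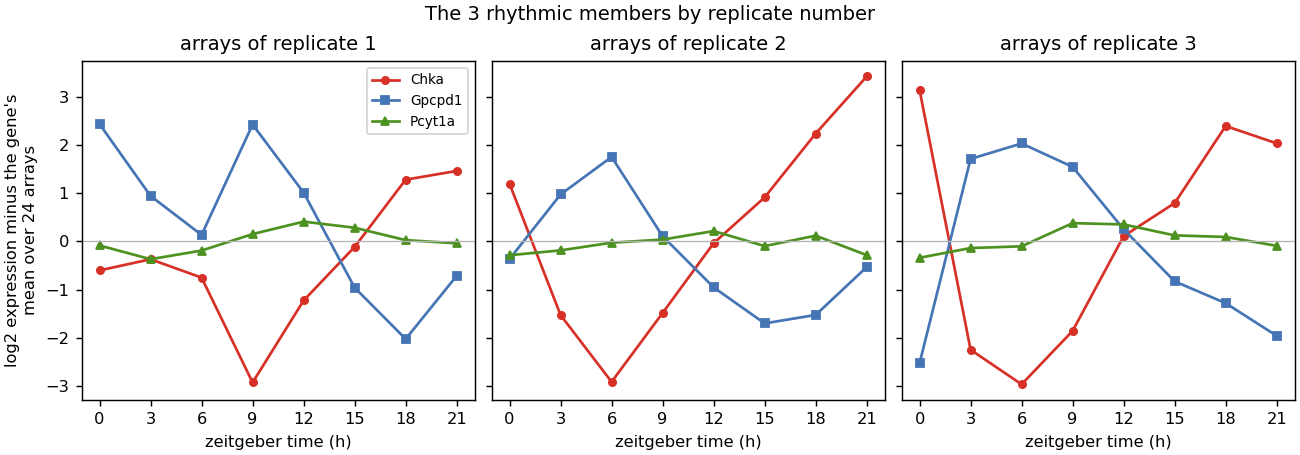
Log2 expression minus the gene's mean over the 24 arrays (vertical axis) against zeitgeber time in hours for Chka, Gpcpd1 and Pcyt1a, with 1 panel per replicate number; each point is 1 array. Chka ends each panel high and Gpcpd1 ends it low, while at ZT0 Gpcpd1 is the higher of these 2 in replicate 1 and Chka is in replicates 2 and 3.

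Since each probe set reads a stretch of the gene's transcript, the daily course can be followed along the gene. All 18 probe sets of Chka peaked within 2 h of the gene's peak time, with ranges of 1.01 to 6.18 (median 4.82), and 17 of them had a range of at least 2. In Gpcpd1, 22 of 23 probe sets peaked within 2 h and 21 had a range of at least 2. The remaining one had a range of 0.49, the lowest, and peaked at 3.61 h. Pcyt1a was less uniform: 11 of its 16 probe sets peaked within 2 h of 12.7 h, and their ranges went from 0.06 to 1.04 with a median of 0.62. For the genes not called rhythmic the shares were 9 of 13 for Etnk2, 6 of 9 for Etnk1, 9 of 18 for Chpt1, 4 of 12 for Pemt, 4 of 15 for Pcyt2 and 3 of 11 for Cept1. Probe sets of 1 gene share their RNA samples and are not replicates.

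**Figure D3:**
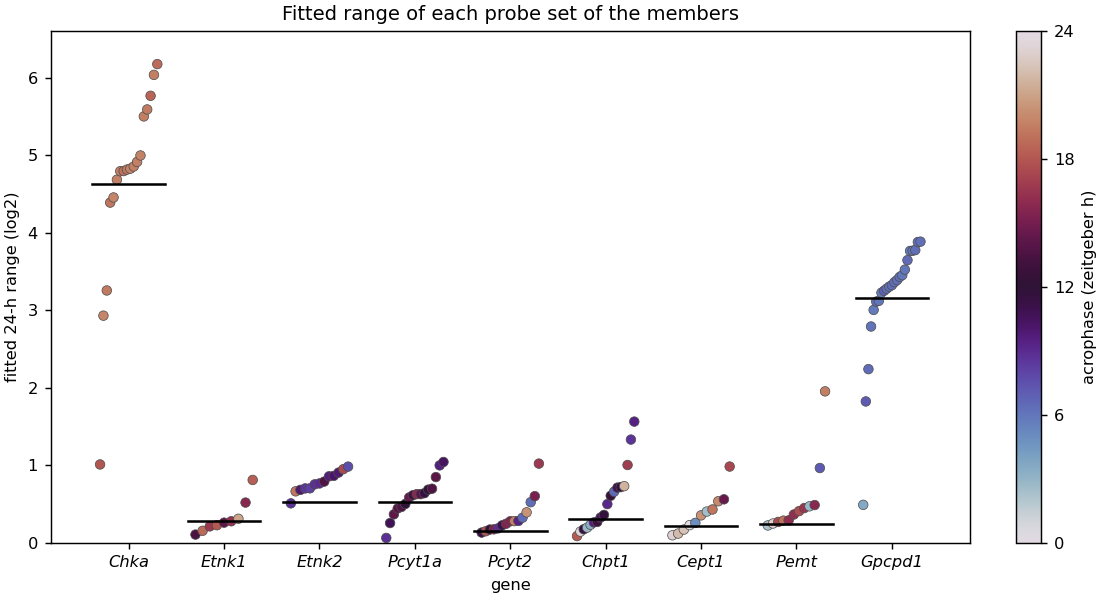
Fitted 24 h range (log2, vertical axis) of every probe set of the 9 measured genes, sorted within each gene; each point is 1 probe set, its colour is the fitted peak time in hours of zeitgeber time, and the black line is the range of the gene's mean. The points of Chka share a colour (18.02 to 19.84 h) and so do those of Gpcpd1 (3.61 to 7.06 h), while those of Pemt and Cept1 differ in colour at low range.

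The wider pathway was followed through a list of 61 other genes in 10 roles, of which 60 were measured and 42 lay above background. Of these 60, 17 were rhythmic (28.3%), against 6.88% of all genes and 13.9% of those above background. The 60 include genes at or below background, which the 13.9% leaves out. The list was chosen with earlier results of these data known. This share and the counts by role below are thus descriptions without a test. A time effect was called for 6 (Slc44a1, Lpin1, Lpin2, Gde1, Pld1 and Sgpl1), against 1.98% of all genes and 432 of the 10289 above background. All 17 were among the 42 above background, and the median range of the 60 was 0.36. Their peaks lay mainly in 2 parts of the day: 7 from ZT18 to ZT24 and 6 from ZT6 to ZT12, and 2 each from ZT0 to ZT6 and from ZT12 to ZT18. Within 3 h of the fitted peak lay 8 of them for Chka, 7 for Pcyt1a and 1 for Gpcpd1. How many of all rhythmic genes peak in these hours was not counted. No trait of the pathway is therefore read from these peak counts.

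**Figure D4:**
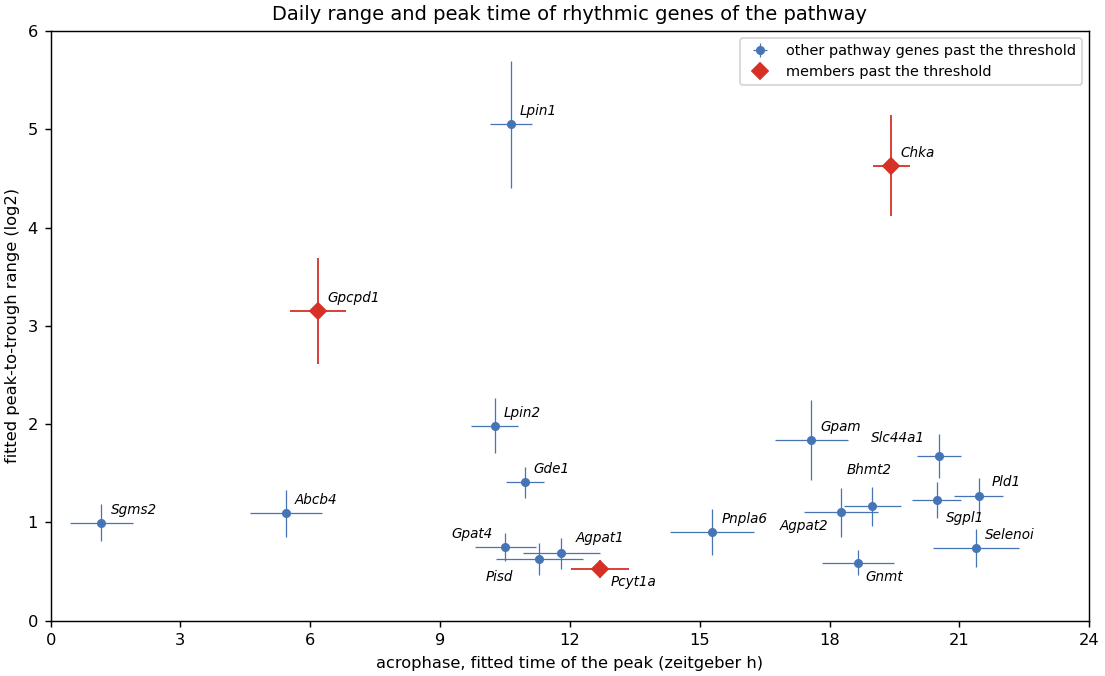
Fitted 24 h range (log2, vertical axis) against fitted peak time (hours of zeitgeber time) of the 3 rhythmic members (diamonds) and the 17 rhythmic genes of the wider pathway (circles); bars are standard errors. Chka at 19.4 h lies beside a group of pathway genes at lower range, Pcyt1a at 12.7 h has the lowest range of all 20, and Gpcpd1 at 6.18 h has Abcb4 as its nearest pathway gene in time.

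Among choline and ethanolamine transporters, 1 of 8 was rhythmic. This was Slc44a1, a choline transporter of the plasma membrane and mitochondria, with time-point means of 9.97 ± 0.50 at ZT6 and 11.59 ± 0.62 at ZT21 (SD, n = 3). Its range was 1.67 ± 0.22 (SE; 3.19-fold, adjusted p = 8.58e-05, limma), and its peak at 20.5 h was close to that of Chka, the kinase that acts on imported choline. Selenoi, the ethanolamine phosphotransferase, was rhythmic among the 2 other CDP-route enzymes, with a range of 0.74 ± 0.19, a peak at 21.4 h and an adjusted p of 0.045. It was not called with each array centred on its median (adjusted p = 0.0844, limma) or with the median of its probe sets (0.0722). In 18 of the 24 fits that omit a single array, Selenoi lost that call (adjusted p 0.0514 to 0.103); it kept it without replicate 1 of ZT0, ZT6, ZT9 or ZT15 and without replicate 2 of ZT3 or ZT15. Pisd, the decarboxylase that makes phosphatidylethanolamine from phosphatidylserine in mitochondria, had a range of 0.63 ± 0.16 with a peak at 11.3 h (adjusted p = 0.0473). Its call was lost in 15 such fits (0.0551 to 0.1) and kept in 9, without replicate 1 of ZT3, ZT9, ZT18 or ZT21, replicate 2 of ZT15 or ZT18, or replicate 3 of ZT0, ZT6 or ZT15. Its brightest probe set peaked at 2.08 h with an adjusted p of 0.687. Pisd was also not called with the median probe set (adjusted p = 0.315, limma) or on replicates 2 and 3 (0.162). Ptdss1 and Ptdss2, the phosphatidylserine synthases of the same role, were not rhythmic.

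The diacylglycerol supply, which feeds the phosphotransferases, had the highest count, with 6 of 9 genes rhythmic. Lpin1, a phosphatidic acid phosphatase, went from 11.14 ± 1.21 at ZT0 to 16.18 ± 1.17 at ZT9 (SD, n = 3). Without the replicate 1 array the ZT0 mean was 10.46 and the fitted range 5.36. Its range of 5.05 ± 0.65 (SE; 33.2-fold, adjusted p = 5.31e-05, limma) had a peak at 10.6 h. Lpin2, a second enzyme of that kind, peaked at 10.3 h with a 3.96-fold range (adjusted p = 0.000141). Gpam, the mitochondrial glycerol-3-phosphate acyltransferase, peaked later, at 17.6 h, with a 3.57-fold range (adjusted p = 0.0154; 0.0622 on the arrays of replicates 2 and 3). Of its 21 probe sets, 4 reached the highest value of the table, which limits what they can show, and the brightest alone had a range of 1.06 in place of 1.83. Gpat4, Agpat1 and Agpat2 were the others, with peaks at 10.5, 11.8 and 18.3 h. On the arrays of replicates 2 and 3 none of these 3 was called. Gpat4 was not called with its brightest probe set (adjusted p = 0.15), and Agpat1 was not called without the ZT0 arrays (adjusted p = 0.244) or without replicate 2 of ZT0 alone (0.056). The brightest probe set of Agpat1 had a range of 1.27 in place of 0.69. The lysophospholipid acyltransferases, which remodel the fatty acids of finished phospholipids, had 0 of 7 rhythmic genes by limma, 0 at an unadjusted p under 0.05, and 2 above background. The smallest p among them was that of Mboat2 (adjusted p = 0.282), at a level of 5.02.

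Of the 13 phospholipases and glycerophosphodiesterases, 3 were rhythmic. Gde1, a membrane glycerophosphodiesterase that is best known for substrates other than glycerophosphocholine, went from 9.77 ± 0.14 at ZT0 to 11.34 ± 0.31 at ZT9 (SD, n = 3), with a range of 1.41 ± 0.16 (SE; 2.65-fold, adjusted p = 1.5e-05, limma). Without the replicate 1 array its ZT0 mean was 9.73, and its range was again 1.41. It peaked at 11.0 h, later in the day than Gpcpd1 at 6.18 h. Pld1, which cleaves phosphatidylcholine to phosphatidic acid and choline, had a 2.40-fold range and a peak at 21.4 h (adjusted p = 0.000307). Its log2 range of 1.26 was 2.19 with the brightest probe set, and that of Gde1 was 2.17 with the median probe set. Pnpla6, which removes both fatty acids of phosphatidylcholine and so makes glycerophosphocholine, had a 1.87-fold range and a peak at 15.3 h (adjusted p = 0.0397). That call was lost in 12 fits that omit a single array (adjusted p 0.0501 to 0.0934): each array of ZT0, replicates 2 and 3 of ZT6, ZT12 and ZT18, replicate 3 of ZT3, replicate 2 of ZT9 and replicate 1 of ZT15. Pnpla6 was also not called with the median (adjusted p = 0.0842, limma) or the brightest probe set (0.126), or without the ZT0 arrays (0.118).

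In the oxidation of choline to betaine and onward, 1 of 6 genes was rhythmic. It was Bhmt2, a homocysteine methyltransferase that uses S-methylmethionine rather than betaine, with means of 14.15 ± 0.25 at ZT9 and 15.31 ± 0.21 at ZT18 (SD, n = 3) and a peak at 19.0 h (adjusted p = 0.00172, limma; 0.0668 on replicates 2 and 3). Its neighbour Bhmt is a close copy, and signal shared between them cannot be separated here. Chdh, the dehydrogenase that starts choline oxidation, was not rhythmic (range 0.21, adjusted p = 0.712). Among the 3 genes of the methyl donor cycle on which Pemt depends, Gnmt, a glycine methyltransferase, had a range of 0.59 ± 0.13 (SE) with a peak at 18.7 h (adjusted p = 0.0123; not called with the median probe set, 0.106, on replicates 2 and 3, 0.101, or with the brightest probe set, which lies at the highest value of the table and has a range of 0). Of its 7 probe sets, 2 reach that value. For Mat1a, the synthase of the methyl donor in liver, 10 of 11 probe sets reached the highest value of the table, so its course cannot be read. In phosphoethanolamine and phosphocholine turnover 1 of 3 genes was rhythmic: Sgpl1, the sphingosine-1-phosphate lyase that releases phosphoethanolamine, with a 2.34-fold range and a peak at 20.5 h (adjusted p = 0.000265).

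Of the 6 genes for phosphatidylcholine transfer, export and use in sphingomyelin, 2 were rhythmic. Abcb4, the canalicular transporter that moves phosphatidylcholine into bile, was at 15.37 ± 0.11 at ZT6 and 14.41 ± 0.86 at ZT21 (SD, n = 3), and its peak at 5.44 h was the one that lay within 3 h of the peak of Gpcpd1. Its range was 1.09 ± 0.24 (SE; 2.13-fold, adjusted p = 0.0141, limma), and the brightest probe set alone gave 0.121. Sgms2, a sphingomyelin synthase that takes its head group from phosphatidylcholine, was at 12.13 ± 0.27 at ZT3 and 10.84 ± 0.30 at ZT12, with a peak at 1.17 h (range 1.00 ± 0.19, adjusted p = 0.00405). On replicates 2 and 3 that peak was at 23.9 h.

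**Figure D5:**
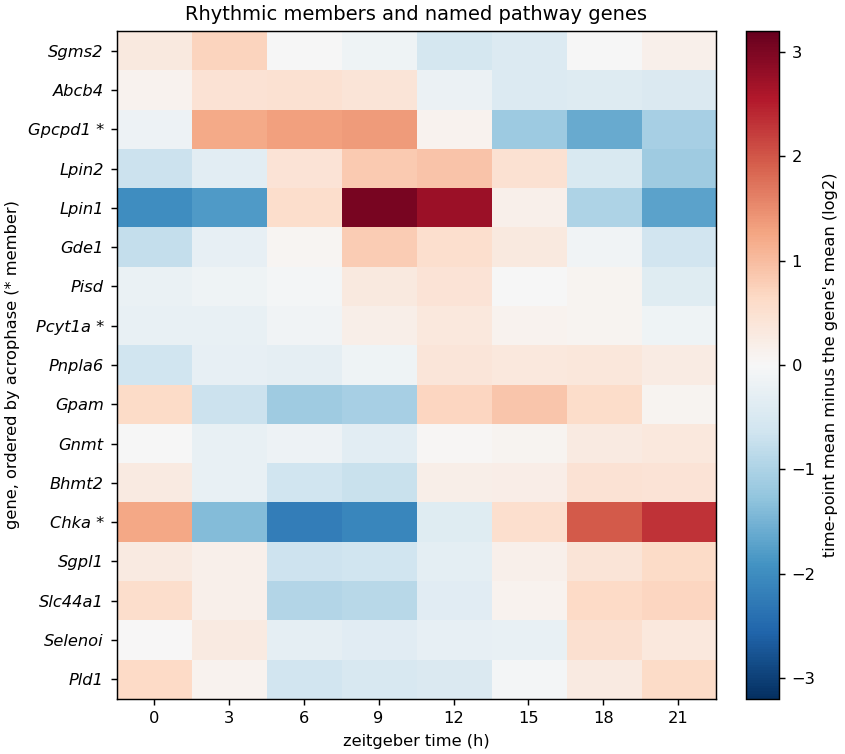
Time-point means minus the gene's mean (log2, colour scale) for the 3 rhythmic members, marked with an asterisk, and 14 named rhythmic genes of the wider pathway, in rows ordered by peak time, against zeitgeber time in hours. Chka and Slc44a1 are high at ZT18 to ZT21, Lpin1, Lpin2 and Gde1 at ZT9 to ZT12, and Gpcpd1 and Abcb4 at ZT3 to ZT9.

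The genes whose levels followed the 3 rhythmic members most closely were sought among 9511 named genes above background, by Pearson's r over the 24 arrays. These points share arrays and time of day, so r is given as a description with no p. Arntl (r = 0.955), Caprin1 (0.934) and Tubb2a (0.93) came closest to Chka, with peaks at 19.7, 20.2 and 20.1 h. For Pcyt1a the closest were Srm (0.899), Pdxk (0.884) and Mtrr (0.875), which peaked at 12.3, 12.8 and 13.0 h. Gpcpd1 was followed by Actn1 (0.895), Slc38a3 (0.844) and Clmn (0.837), with peaks at 6.93, 5.82 and 7.21 h. Likeness in r did not always go with likeness in range. Arntl (5.15) and Tubb2a (4.06) had ranges near the 4.63 of Chka, and Caprin1 had 1.33. The ranges of Srm, Pdxk and Mtrr were 2.104, 1.73 and 1.08 against 0.52 for Pcyt1a, and those of Actn1, Slc38a3 and Clmn were 0.76, 0.96 and 1.28 against 3.15 for Gpcpd1.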

How the data were processed

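Biotinylated single-stranded DNA from 300 ng of liver RNA was hybridised to Affymetrix whole-transcript arrays, 24 in all. The authors deposited 1 table of log2 values for 269479 probe sets. The submitters' processing notes name Affymetrix Power Tools 2.10.0, limma and the mouse build mm10. The normalization method is not given in the sources used here, and the number of arrays limits the precision of the means and fits. Of the probe sets, 233753 have 1 gene symbol, 5106 several and 30620 none; 2189 symbols were updated. Probe sets with 1 symbol were averaged per gene. Courses were fitted with limma 3.58.1 (R 4.3.3), by lmFit and eBayes, and tested on simulated data first. Named are all members, up to 3 rhythmic genes of largest range per pathway role (otherwise the gene of smallest p), and the 3 genes most like each rhythmic member; Gpat4, Agpat1, Agpat2, Chdh, Mat1a, Ptdss1 and Ptdss2 were named after their values were seen. Members and lists were chosen with earlier results of these data known. The labels do not say whether the replicate numbers pair the arrays. Alternatives changed the scaling, gene value, filters, variance prior, replicate block and arrays used. Promoters are from the RefSeq table of GRCm38.p6; no protein sequences were used.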

Additional observations from a re-analysis of the deposited data

How the results depend on the processing

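Rhythmic members numbered 3 with every single array left out (3 to 3) and 2 with the median or the brightest probe set and on replicates 2 and 3, where Pcyt1a was not called. A time effect was called for 1 member (Chka, a description, as is any count with Chka or Gpcpd1), and for 2 without dim genes, those at or below background (Pcyt1a added, adjusted p = 0.0383), without the ZT0 arrays, without ZT0 replicate 1 and without ZT0 replicate 3 (Gpcpd1 added each time); the range was 1 to 2 over single arrays left out. Rhythmic genes of the wider pathway numbered 17, with 13 to 18 over single arrays left out and 10 on replicates 2 and 3. Over all genes the count of 1592 ran from 1316 to 1730 with single arrays left out, and was 907 with the median probe set, 760 with the brightest and 765 on replicates 2 and 3. With its brightest probe set alone, Pisd had a range of 0.309 and a peak at 2.08 h, in place of 0.63 and 11.3 h. Settings that leave out arrays fit fewer of them, the brightest probe set replaces the mean of several, and without dim genes fewer genes are tested. Whether these differences, or the use of the median probe set, account for the changed counts was not tested. The range of Chka stayed between 4.41 and 5.40 and that of Pcyt1a between 0.49 and 0.57 over the 34 alternatives. Peak times also moved on replicates 2 and 3, for example to 9.67 h for Lpin1, 9.41 h for Lpin2 and 20.2 h for Pld1. Among the rhythmic members and pathway genes, only Gpcpd1 (6.41 h) and Pnpla6 (15.4 h) peaked later there than on all arrays. The others peaked earlier.

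With the replicate number as a block, 3 members and 14 pathway genes were rhythmic. Selenoi (adjusted p = 0.0613), Pisd (0.0642) and Pnpla6 (0.0573) lost their call. The labels do not say whether the numbers pair the arrays. Deviations of same-numbered arrays correlated at -0.019 on average over 84 pairs, 5 of which exceeded 0.1. Of the 24 arrays, 4 correlated best with their own number. An offset in time shared by a set would change sign over the day, so these values cannot show whether there was one. The block takes up a difference in level only.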
